A study of Mus musculus with 48 samples.

Results

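The genes of fatty acid uptake and oxidation were followed in 6 mouse organs (heart, liver, kidney, lung, brain and retina) before birth and in the young adult. The set holds 37 genes named by symbol, and all 37 were found by Ensembl identifier in each of the 4 deposited tables, which list 22055 genes. By role, 7 members take up and activate fatty acids, 6 belong to the carnitine shuttle, 13 to mitochondrial beta-oxidation, 3 to the electron transfer flavoprotein system, 5 to peroxisomal beta-oxidation, and 3 are linked genes of mitochondria and lipid droplets. These roles were assigned by list and do not overlap. Tissues came from wild-type C57BL/6 mice at postnatal day 42 (P42) and embryonic day 15.5 (E15.5). Polyadenylated RNA was measured by RNA-seq. Ribosome-protected fragments (footprints), whose level follows how many ribosomes sit on a message, were measured by Ribo-seq. The 6 tissues, 2 stages and 2 assays made 24 groups of 2 biological replicates, 48 libraries in all. By their labels the groups differ in tissue, stage and assay. Each library comes from a lysate of frozen tissue and holds every cell type of the organ.

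Fatty acids enter cells with the help of proteins such as CD36, are carried in the cytosol by fatty acid binding proteins, and are activated to acyl-CoA by acyl-CoA synthetases. The carnitine shuttle brings long-chain acyl groups into mitochondria, where CPT1 on the outer membrane is the regulated step, and there a cycle of dehydrogenation, hydration, dehydrogenation and thiolysis removes acetyl-CoA units. Peroxisomes run a parallel cycle that shortens very long chains and makes hydrogen peroxide. The adult heart is known for drawing most of its energy from fatty acids, liver and kidney proximal tubule for oxidizing them in both organelles, and brain for using little.

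Values are TPM as deposited, the relative abundance of transcripts per unit of exon length, scaled to a fixed library total. Levels of different genes can thus be set side by side by mRNA. Footprint TPM are by exon too and not by translated length, so footprint levels are best compared for the same genes. Read totals cannot be had from TPM, and the depth of each library is unknown. The listed genes added up to 48.9% to 93.4% of the full TPM total in mRNA libraries. In footprint libraries they came to 23.1% to 61.1%. Genes of the mitochondrial genome took 0.34% to 55.5% of that total by mRNA, and by footprint their share was 0.13% to 7.19%. The median of all tested genes was lower at P42 than at E15.5 by mRNA, by 0.23 in retina to 1.61 in heart on the log2 scale, and it shifted by -1.014 in heart to 0.08 in retina by footprint. Changes are therefore given from the deposited TPM and set beside a median-of-ratios scaling, which removes that shift. A change that was called with the deposited TPM, with median-of-ratios scaling, with the mitochondrially encoded genes left out and with equal library sums is said to hold under every scaling. For counts of members held to that rule, the share of all genes is not given. The stages were deposited in separate tables, so stage and table cannot be told apart. In tissue homogenates fewer cells of a type and less RNA per cell cannot be told apart either. Nothing in the labels ties replicates to litters or days, and p-values measure the spread between these samples. Some libraries held markers of other organs, and values for these stand with several of the results. Unless replicates are named, sums and shares are printed with the lower library first, and levels of single genes with replicate 1 first.

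The summed level of the 13 mitochondrial beta-oxidation genes set heart, kidney and liver apart from brain, retina and lung at P42, while the summed level of the 5 peroxisomal genes set kidney and liver apart from all the others, heart included. By mRNA the mitochondrial sum was 2738 and 2999 TPM in P42 hearts, against 2480.2 and 2592 TPM in E15.5 hearts. In liver it was 2990.3 and 3281 TPM in P42 livers, against 1147 and 1207 TPM in E15.5 livers. In kidney it was 2682 and 2718 TPM in P42 kidneys, against 647 and 1105 TPM in E15.5 kidneys. As a share of the deposited mRNA TPM, the kidney sum was 0.300% and 0.304% at P42, against 0.132% and 0.135% at E15.5. Heart libraries of both stages lay between 2480.2 and 2999 TPM, whereas every P42 liver and kidney library lay above every E15.5 library of the same tissue. The heart stages lay close on the deposited scale, on which the median gene was lower at P42. They lay close as a share of the deposited mRNA TPM too. That share was 0.319% and 0.342% in P42 hearts, against 0.332% and 0.334% in E15.5 hearts. With median-of-ratios scaling 13 of the 13 genes were called higher in heart by mRNA (20.9% of all genes). As a share of the deposited footprints the heart sum was 1.00% and 1.09% at P42, against 0.587% and 0.728% at E15.5. In brain the mitochondrial sum was 386 and 399 TPM in P42 brains, against 393 and 401 TPM in E15.5 brains, in retina 385 and 409.8 TPM in P42 retinas, against 529 and 544 TPM in E15.5 retinas, and in lung 587 and 645 TPM in P42 lungs, against 962 and 990.2 TPM in E15.5 lungs. The lung sum was lower at P42 by less than the median gene, whose log2 change was -1.11, and by footprint it was 837 and 923 TPM in P42 lungs, against 825 and 849 TPM in E15.5 lungs.

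The peroxisomal sum moved otherwise. By mRNA it was 947 and 1244 TPM in P42 livers, against 115 and 117 TPM in E15.5 livers, and 709 and 863 TPM in P42 kidneys, against 78.5 and 139 TPM in E15.5 kidneys. In heart it was 42.1 and 48.8 TPM in P42 hearts, against 109 and 114 TPM in E15.5 hearts. The footprints gave the same order of stages in these tissues, with 712 and 1274 TPM in P42 livers, against 135 and 146 TPM in E15.5 livers, and 65.5 and 68.1 TPM in P42 hearts, against 122 and 127 TPM in E15.5 hearts. Stages did not overlap in any of these comparisons. As a share of the deposited TPM, the 37 members together made up 1.00% and 1.12% in P42 hearts, against 0.695% and 0.707% in E15.5 hearts. In brain, retina and lung the peroxisomal mRNA sums at P42 lay between 72.4 and 131 TPM. The peroxisomal sum of heart was lower at P42 by less than the median gene was, so its direction rests on the deposited scale. These sums describe the libraries and were not tested.

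**Figure D1:**
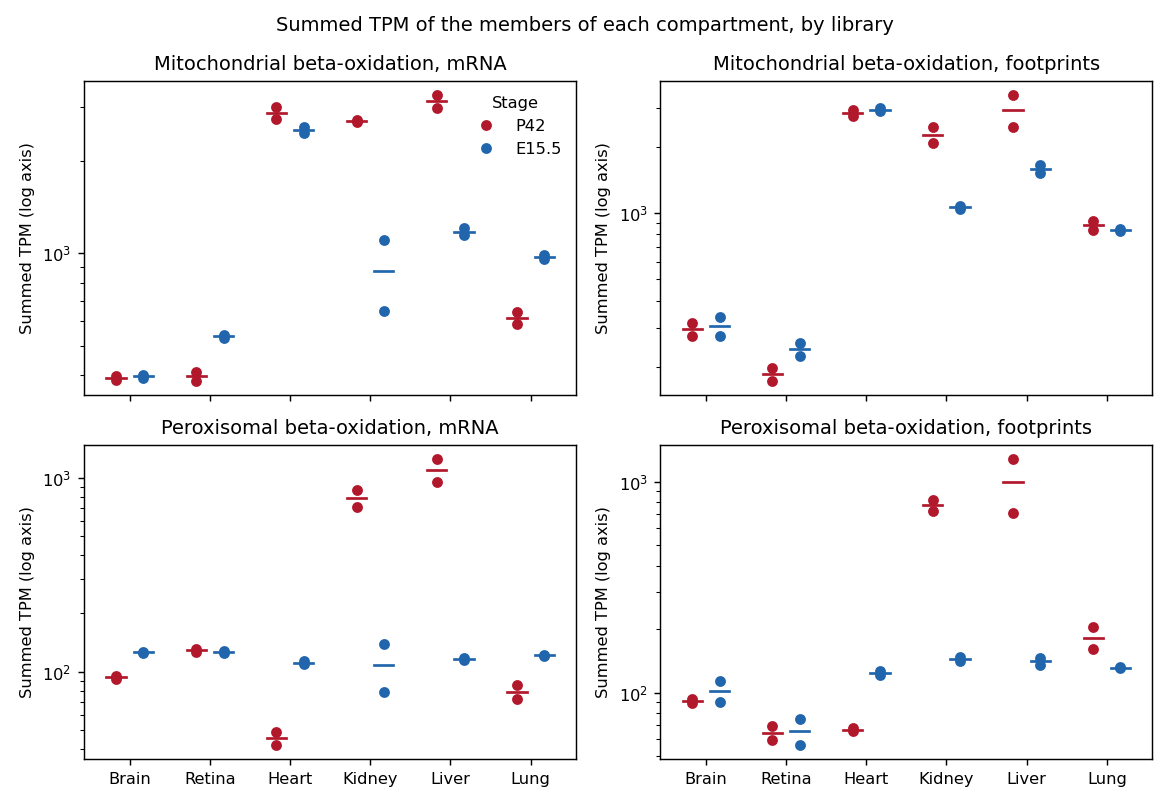
Summed TPM (log axis) of the 13 mitochondrial and the 5 peroxisomal beta-oxidation genes in each library, by tissue, for mRNA (left) and footprints (right). Points are libraries, P42 in red left of E15.5 in blue, and lines are means of 2 libraries. The peroxisomal sum lies between 947 and 1244 TPM in P42 liver mRNA and between 42.1 and 48.8 TPM in P42 heart mRNA, while the mitochondrial sums of these tissues overlap in range.

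Each tissue was next compared with each of the 5 other tissues at the same stage. A gene was called highest in a tissue where all 5 differences had an adjusted p below 0.05 and a log2 size of at least 1 (limma, Benjamini-Hochberg). At P42, heart held 6 such members by mRNA (1.42% of the 17171 genes tested) and the same 6 by footprint (5.03% of 16715). They were Fabp3, Cpt1b, Hadhb, Pdk4, Ucp3 and Plin5. Liver held 5 by mRNA (3.42%), Acsl1, Acsl5, Acaa2, Acaa1b and Decr2, and 4 by footprint (3.27%), Acsl5, Eci2, Acaa1b and Decr2. Kidney held Ehhadh by mRNA (4.18%). Brain held Cpt1c by mRNA (7.47%) and by footprint (10.9%), and lung held Cd36 by footprint (9.87%).

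Before birth heart held more such members, and by mRNA a larger share of all genes as well. At P42 that share was 1.42% by mRNA and 5.03% by footprint. Calls of the highest tissue are given for the deposited TPM only. Mitochondrially encoded genes took 54.2% and 55.5% of the full TPM total in P42 heart mRNA, against 14.5% and 14.98% at E15.5. Their part in these counts was not tested. At E15.5 heart held 12 members by mRNA (2.90%) and 10 by footprint (3.36%). Among the 12 were Cd36, Fabp3, Cpt1b, Crat, Acadl, Acadm, Acads, Eci1, Etfa and Etfdh. Liver held Ehhadh by mRNA (6.26%) and Acsl1, Acsl5 and Ehhadh by footprint (6.22%). Retina held Acsl3 by mRNA (2.00%) and brain Cpt1c by footprint (7.26%). The 6 heart markers of cardiomyocytes, Myh6 and Actc1 among them, checked the label: they summed to 12048 and 15113 TPM in P42 hearts, against 19056 and 20231 TPM in E15.5 hearts by mRNA. The same markers reached 98.8 and 227 TPM in P42 lungs, against 250.4 and 583 TPM in E15.5 lungs, and 2.63 and 283 TPM in the E15.5 livers. In the E15.5 livers Actc1 had 0.933 and 233 TPM of this in replicates 1 and 2, with Myh6 at 0.0220 and 0.489 TPM, and the 6 skeletal muscle markers, led by Acta1, summed to 1.04 and 1.54 TPM in P42 livers, against 25.6 and 596 TPM in E15.5 livers. Levels of heart genes such as Cpt1b and Fabp3 in lung and liver stand beside these muscle transcripts, whose part in them was not tested.

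**Figure D2:**
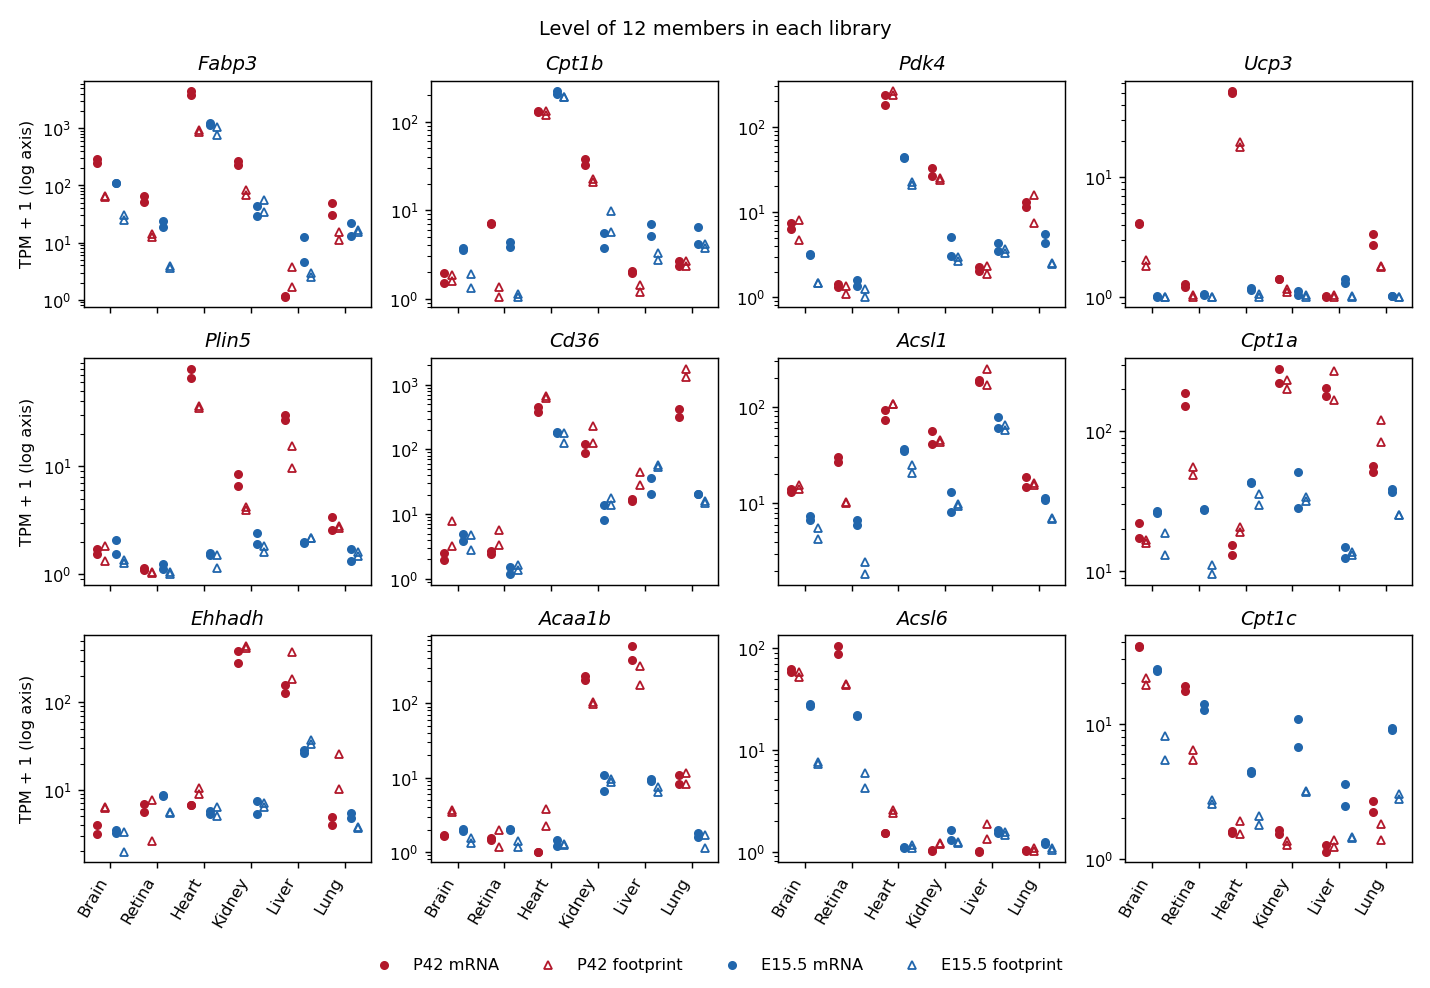
TPM + 1 (log axis) of 12 members in each library, by tissue. Filled circles are mRNA and open triangles footprints, with P42 in red left of E15.5 in blue. Fabp3, Cpt1b, Pdk4, Ucp3 and Plin5 peak in heart at P42, Ehhadh in kidney, Acaa1b in liver by both assays, and Cd36 footprints in lung.

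Between the stages, with the deposited TPM, more members rose in kidney and liver than in any other tissue by mRNA. With median-of-ratios scaling the mRNA count of heart, 28 (20.9% of all genes), passed that of liver, 26 (29.9%). To be called, a member had to change by at least 1 on the log2 scale with an adjusted p under 0.05, in a limma fit over the 24 libraries of an assay with Benjamini-Hochberg adjustment over all genes tested in that tissue. In kidney, 27 of 35 tested members were called higher at P42 by mRNA (13.1% of all genes tested) and 2 lower (43.9%). By footprint the kidney counts were 21 of 35 higher (12.2%) and 2 lower (40.2%). With median-of-ratios scaling, 32 were higher (25.7% of all genes) and 1 lower (20.7%) by mRNA. With that scaling by footprint, 31 were higher (24.3% of all genes) and 0 lower by limma (16.4%), with 1 lower at an unadjusted p below 0.05. In 18 members the kidney rise was called by both assays and held under every scaling. The share of all genes that met this joint rule is not given. The E15.5 kidney mRNA libraries differed in their totals. Listed genes made up 81.7% of the full TPM total in replicate 1 and 48.9% in replicate 2. Their mitochondrial sums were 1105 TPM in replicate 1 and 647 TPM in replicate 2. As a share of the deposited TPM these sums were close, at 0.132% and 0.135%. Without E15.5 kidney replicate 2 the mRNA changes of Hadhb, Echs1, Etfdh and Hsd17b4 came below a log2 of 1, at 0.80, 0.80, 0.86 and 0.89. By footprint Acadl came to 0.95 and Hadhb to 0.97 without P42 replicate 1, and the 2 falls became 1 without either E15.5 library. The 6 proximal tubule markers, led by Kap, summed to 46026 and 66711 TPM in P42 kidneys, against 81.0 and 133 TPM in E15.5 kidneys by mRNA, and their part in these changes was not tested. Kidney libraries held markers of other organs too. The 5 hepatocyte markers summed to 309.6 and 351 TPM in P42 kidneys, against 1532 and 2499 TPM in E15.5 kidneys by mRNA and 236 and 240.1 TPM in P42 kidneys, against 3252 and 3326 TPM in E15.5 kidneys by footprint. By footprint the 6 cardiomyocyte markers summed to 8.81 and 13.5 TPM in P42 kidneys, against 292 and 784 TPM in E15.5 kidneys, and the 5 lung epithelial markers to 727 and 2909 TPM in P42 kidneys, against 2.90 and 3.68 TPM in E15.5 kidneys. The part of these transcripts was not tested either.

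In liver, 21 of 35 tested members were called higher at P42 by mRNA (13.4% of all genes tested) and 4 lower (47.0%). By footprint the liver counts were 15 of 34 higher (10.2%) and 1 lower (44.0%). With median-of-ratios scaling, 26 were higher (29.9% of all genes) and 2 lower (24.1%) by mRNA. With that scaling by footprint, 28 were higher (25.2% of all genes) and 0 lower by limma (18%), with 1 lower at an unadjusted p below 0.05. The 12 members called higher by both assays under every scaling were Acsl1, Cpt1a, Slc25a20, Acaa2, Eci2, Decr1, the 5 peroxisomal genes and Plin5. The 7 erythroid markers, led by Hbb-bs, summed to 547 and 812 TPM in P42 livers, against 106131 and 120983 TPM in E15.5 livers by mRNA, and the 5 hepatocyte markers, led by Alb, to 128232 and 136303 TPM in P42 livers, against 39496 and 44461 TPM in E15.5 livers; the part of either in these changes was not tested. By footprint the member called lower was Cpt1b, 0.193 and 0.408 TPM in P42 livers, against 1.76 and 2.23 TPM in E15.5 livers. That count was 3 without P42 liver replicate 2 and 0 without E15.5 liver replicate 1.

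In heart the count depended on the scaling, and the median gene was lower at P42 by 1.61 by mRNA and 1.014 by footprint. With the deposited TPM, 10 of 35 tested members were called higher at P42 by mRNA (2.73% of all genes tested) and 7 lower (74.6%). By footprint 10 of 35 members were higher (10.2%) and 5 lower (50.6%). With median-of-ratios scaling, 28 were higher (20.9% of all genes) and 1 lower (13.7%) by mRNA, and 23 were higher (22.3% of all genes) and 1 lower (10.2%) by footprint. Acsl1, Decr1, Pdk4, Ucp3 and Plin5 rose and Acsl3 fell by both assays under every scaling. Without P42 heart mRNA replicate 1, Cpt2 came to 0.89 and Hadhb to 0.95, and the footprint fall of Acads lost its call without P42 replicate 1 (-1.17), P42 replicate 2 (-1.04) or E15.5 replicate 1 (-0.82).

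In retina more of the 13 mitochondrial beta-oxidation genes fell than rose. With the deposited TPM 2 were called higher at P42 and 7 lower by mRNA, and 2 higher and 4 lower by footprint. Their median mRNA change was -1.04, against -0.23 over all tested genes. After median-of-ratios scaling the mRNA counts of these 13 were 2 and 4. The counts that follow are for members of every role. With the deposited TPM, 7 of 32 tested members were called higher at P42 by mRNA (18.6% of all genes tested) and 10 lower (24.7%). By footprint 10 of 32 were higher (21.3%) and 4 lower (16.2%). With median-of-ratios scaling, 7 were higher (22.0% of all genes) and 4 lower (17.3%) by mRNA, and 10 were higher (21.6% of all genes) and 4 lower (16.3%) by footprint. Acads, Hadh, Hsd17b10 and Decr1, all mitochondrial, fell by both assays under every scaling, while Fabp3, Acsl1, Acsl6, Cpt1a, Acadvl and Acadm rose. Of these risers, only Acadvl and Acadm belong to the mitochondrial beta-oxidation list. The 4 photoreceptor markers summed to 28369.9 and 31252 TPM in P42 retinas, against 1.82 and 1.83 TPM in E15.5 retinas by mRNA, and their part in these changes was not tested. Without P42 retina replicate 1 the mRNA change of Echs1 came to -0.94 and the footprint change of Decr1 to -0.99. Without P42 replicate 2 the mRNA change of Hsd17b4 came to -0.99, and without E15.5 replicate 2 the mRNA change of Acadl came to -0.94 and the footprint change of Acsl3 to 1.00.

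In brain few members moved by mRNA. With the deposited TPM, 5 of 35 tested members were called higher at P42 by mRNA (11.7% of all genes tested) and 2 lower (36.0%). By footprint 12 of 34 were higher (20.2%) and 1 lower (17.7%). With median-of-ratios scaling, 17 were higher (22.9% of all genes) and 0 lower by limma (15.4%), with 2 lower at an unadjusted p below 0.05, by mRNA. With that scaling by footprint, 12 were higher (22.3% of all genes) and 1 lower (14.4%). Fabp3, Acsl5, Acsl6 and Pdk4 rose by both assays under every scaling. The mRNA falls were Cpt1b and Slc25a20, and without P42 brain replicate 2 Cpt1b came to -0.91, leaving 1. The footprint fall was Acads, which lost its call without P42 replicate 1 (-1.18), P42 replicate 2 (-1.29) or E15.5 replicate 1 (-0.74), while 4 members fell without E15.5 replicate 2.

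In lung the members that fell by mRNA outnumbered those that rose, and the order turned by footprint. With the deposited TPM, 5 of 36 tested members were called higher at P42 by mRNA (10.1% of all genes tested) and 11 lower (53.5%). By footprint 8 of 35 were higher (18.6%) and 3 lower (22.8%). With median-of-ratios scaling, 12 were higher (24.7% of all genes) and 1 lower (15.6%) by mRNA, and 9 were higher (23.4% of all genes) and 2 lower (14.5%) by footprint, so that scaling turned the mRNA order too. Cd36, Acaa1b and Pdk4 rose and Acads fell by both assays under every scaling. The 5 lung epithelial markers, led by Scgb1a1, summed to 261324 and 376097 TPM in P42 lungs, against 3739 and 4680.5 TPM in E15.5 lungs by mRNA, a large part of each P42 library, and their part in these changes was not tested. Of the mRNA calls, Fabp3 came to 0.81 without P42 lung replicate 1, which left 3 rises, and to 0.79 without E15.5 replicate 2. Cpt1b came to -0.94 without P42 replicate 2 and -0.72 without E15.5 replicate 1, and Eci1 to -0.84 without P42 replicate 2. By footprint 1 fall was left without P42 replicate 2, with Acsl3 at -0.93 and Acads at -0.96.

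**Figure D3:**
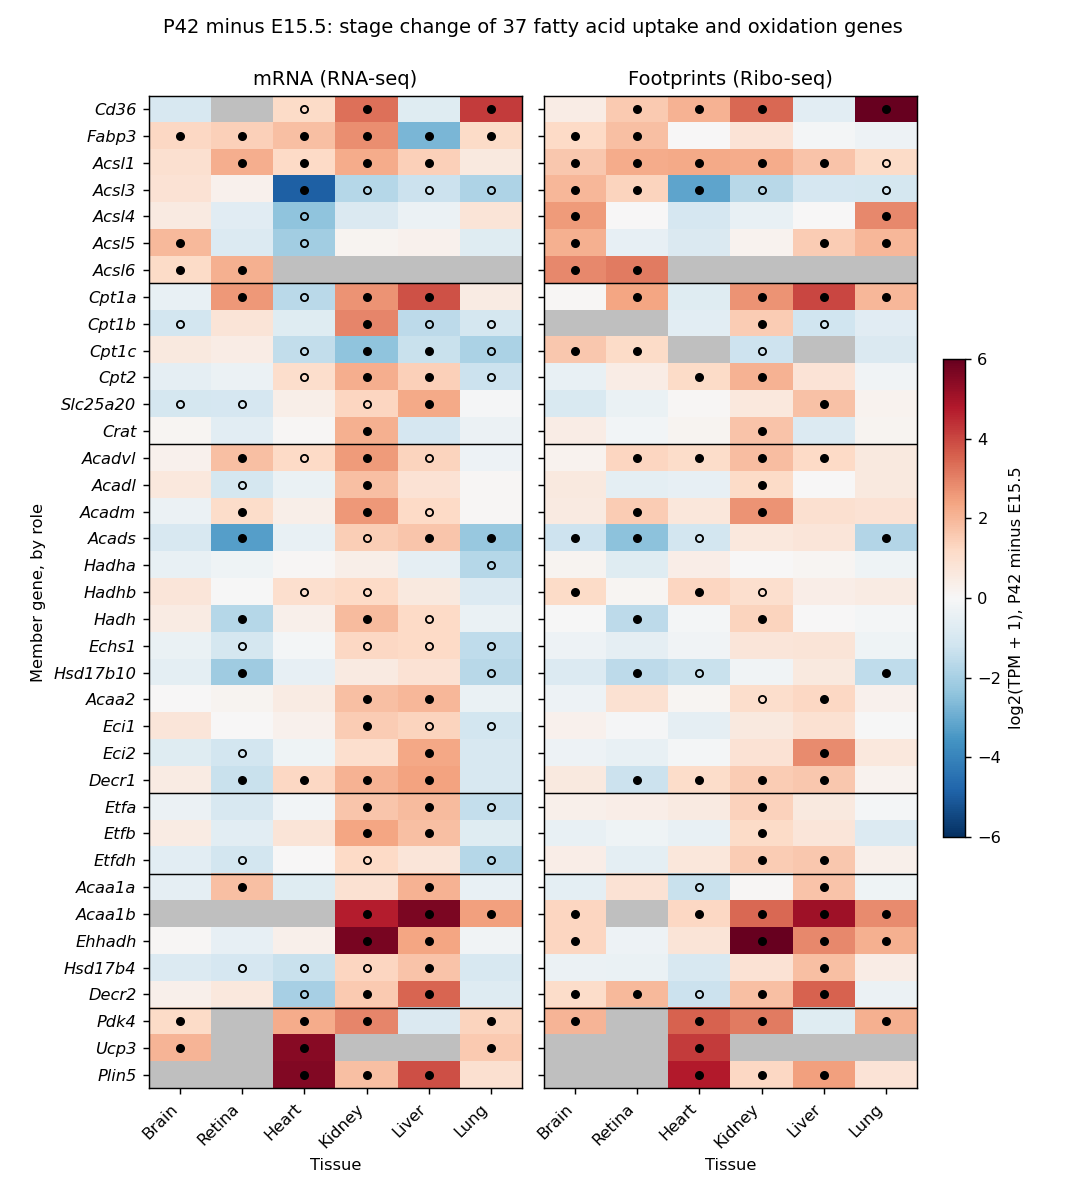
Log2 change of TPM + 1, P42 minus E15.5, of the 37 members (rows, by role) in 6 tissues, for mRNA (left) and footprints (right). Red is higher at P42 and blue lower, grey cells were not tested, filled circles mark changes called under every scaling and open circles changes called with the deposited TPM that did not hold under every scaling. The kidney and liver columns are mostly red, and the peroxisomal rows differ between liver and heart.

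Among the uptake genes, Cd36 (chromosome 5, 17781690 to 17888801, minus strand, GRCm38.p6) encodes the scavenger receptor that takes long-chain fatty acids into muscle, fat and endothelium. It had 424 and 322 TPM in P42 lungs, against 19.6 and 19.1 TPM in E15.5 lungs by mRNA. By footprint it had 1786 and 1321 TPM in P42 lungs, against 13.8 and 15.1 TPM in E15.5 lungs. Its log2 change in lung was 4.19 (SE 0.26, adjusted p = 3.3e-12) by mRNA and 6.64 (SE 0.39, adjusted p = 1.11e-10) by footprint. Kidney followed with 122 and 88.2 TPM in P42 kidneys, against 12.9 and 6.98 TPM in E15.5 kidneys, a change of 3.32, and 3.45 by footprint. The 7 adipocyte markers of these libraries summed to 23.9 and 57.8 TPM in P42 kidneys, against 1.36 and 2.21 TPM in E15.5 kidneys by mRNA, led by Cfd, with Ucp1 at 9.15 and 2.44 TPM at P42, and were higher in P42 replicate 1, as Cd36 was. In heart Cd36 had 448 and 378 TPM in P42 hearts, against 180.2 and 185 TPM in E15.5 hearts, a change of 1.17 by mRNA, which did not hold under every scaling, and 2.09 by footprint, which did. In liver it had 14.96 and 16.4 TPM in P42 livers, against 35.5 and 19.6 TPM in E15.5 livers, a change of -0.72 (SE 0.26, adjusted p = 0.0159). The difference between heart and lung at P42 did not pass the test by mRNA (log2 difference 0.15, adjusted p = 0.643). The 5 endothelial markers summed to 884.7 and 987 TPM in P42 lungs, against 590.4 and 639 TPM in E15.5 lungs, and the 7 adipocyte markers to 52.8 and 191 TPM in P42 lungs, against 0.257 and 0.500 TPM in E15.5 lungs, with Ucp1 below 0.1 TPM at P42 and Ucp1, Adipoq, Cfd, Lep and Retn below 0.1 TPM at E15.5. Of the adipocyte markers, Cfd had 165 and 46.3 TPM by mRNA in P42 lung replicates 1 and 2. By footprint it had 26.4 and 67.4 TPM in that order. The part of endothelial cells and adipocytes in the Cd36 change was not tested.

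Genes of fatty acid oxidation are textbook targets of the PPAR nuclear receptors, which bind 2 copies of AGGTCA in the same direction with 1 base between them. The 250 bases before the RefSeq start (GRCm38.p6) were searched on both strands for that repeat. At most 2 mismatches were found before 4 of the 32 members in the table, Cd36, Echs1, Etfa and Ucp3, and before 3.72% of all 27025 genes. At most 1 mismatch was found before 0.566% of all genes and before none of the 32 members. The Cd36 match is shown because Cd36 had the largest change of the set in lung. It lies 63 to 51 bases before the start, on the other strand, within chr5:17835917-17835989, minus strand, with the match in capitals. This RefSeq start lies inside the gene as GENCODE M21 draws it.
Cd36: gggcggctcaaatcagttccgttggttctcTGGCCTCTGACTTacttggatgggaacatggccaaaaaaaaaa

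Fabp3, the cytosolic fatty acid binding protein of heart and muscle, was the most abundant member in heart, with 4432 and 3791 TPM in P42 hearts, against 1223 and 1121 TPM in E15.5 hearts by mRNA. The P42 hearts lay above the E15.5 hearts, and the log2 change was 1.81 (SE 0.32, adjusted p = 1.96e-05). By footprint the hearts overlapped, with 933 and 866 TPM in P42 hearts, against 1065 and 754 TPM in E15.5 hearts and a change of 0.00 (SE 0.31, adjusted p = 0.99). In kidney Fabp3 had 266 and 228 TPM in P42 kidneys, against 42.4 and 28.2 TPM in E15.5 kidneys by mRNA, a change of 2.80, and 82.2 and 68.4 TPM in P42 kidneys, against 32.8 and 54.9 TPM in E15.5 kidneys by footprint, a change of 0.81 that was not called. In brain it had 244 and 285 TPM in P42 brains, against 109.9 and 109 TPM in E15.5 brains, with changes of 1.26 by mRNA and 1.20 by footprint, and in retina 49.98 and 63.7 TPM in P42 retinas, against 22.8 and 18.1 TPM in E15.5 retinas, with 1.43 and 1.83. In liver it fell by mRNA, 0.115 and 0.153 TPM in P42 livers, against 3.67 and 11.5 TPM in E15.5 livers, a change of -2.75 (SE 0.32, adjusted p = 7.17e-08). The skeletal muscle markers of the E15.5 livers, 25.6 and 596 TPM, and their Actc1 were likewise higher in replicate 2, and the part of muscle transcripts in this change was not tested. Without E15.5 liver replicate 1 or 2 that change was -3.46 or -2.04, called both ways. In lung Fabp3 had 48.05 and 29.1 TPM in P42 lungs, against 21.3 and 12.3 TPM in E15.5 lungs by mRNA and 14.5 and 10.1 TPM in P42 lungs, against 15.7 and 14.7 TPM in E15.5 lungs by footprint. Exons of Fabp3 overlap Zcchc17 and Gm10570, and counting may have split their reads.

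The acyl-CoA synthetases activate fatty acids to acyl-CoA, and the order of the 5 isoforms differed between stages and tissues. In heart, Acsl1, the main isoform of heart, liver and fat, had 91.1 and 71.2 TPM in P42 hearts, against 35.6 and 33.8 TPM in E15.5 hearts by mRNA, a change of 1.19 (SE 0.21, adjusted p = 1.85e-05). Acsl3, an isoform of the endoplasmic reticulum and lipid droplets, had 1.20 and 0.834 TPM in P42 hearts, against 59.4 and 58.0 TPM in E15.5 hearts, a change of -4.89 (SE 0.20, adjusted p = 5.96e-15) and the largest fall of the set in heart. By footprint the changes were 2.25 for Acsl1 and -3.18 for Acsl3. Of the family's summed mRNA, Acsl1 took 88.3% and 89.4% in P42 hearts, against 24.6% and 25.0% in E15.5 hearts. Acsl3 took 1.03% and 1.18% in P42 hearts, against 41.8% and 42.3% in E15.5 hearts. The order of these isoforms in heart was thus opposite at the 2 stages.

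In liver Acsl1 had 178 and 187 TPM in P42 livers, against 77.3 and 58.8 TPM in E15.5 livers, and rose by 1.42 by mRNA and 1.73 by footprint. Acsl5, an isoform of liver and gut, had 136 and 123 TPM in P42 livers, against 121 and 98.5 TPM in E15.5 livers by mRNA, a change of 0.24 (SE 0.21, adjusted p = 0.297). By footprint it had 212 and 259 TPM in P42 livers, against 86.6 and 77.7 TPM in E15.5 livers, a change of 1.501 (SE 0.19, adjusted p = 1.88e-06). In brain and retina the isoform that rose most by footprint was Acsl6, known for its part in docosahexaenoic acid content of neural tissue. By mRNA it had 57.7 and 60.8 TPM in P42 brains, against 27.0 and 25.7 TPM in E15.5 brains. It had 104 and 87.0 TPM in P42 retinas, against 20.4 and 21.1 TPM in E15.5 retinas. In brain it changed by 1.14 by mRNA and 2.89 by footprint, in retina by 2.15 and 3.14, and outside these tissues it reached at most 0.535 TPM on average by mRNA at P42. Acsl4, which prefers arachidonic acid, had 49.9 and 43.3 TPM in P42 lungs, against 25.5 and 27.4 TPM in E15.5 lungs by mRNA and 166 and 164 TPM in P42 lungs, against 21.4 and 21.5 TPM in E15.5 lungs by footprint, with changes of 0.79, not called, and 2.89. Acsl3 exons overlap Utp14b, and Acsl5 exons overlap Zdhhc6.

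The remaining changes of the family ran as follows. Acsl5 had 46.5 and 53.9 TPM in P42 brains, against 13.8 and 10.97 TPM in E15.5 brains, with changes of 1.94 by mRNA and 2.14 by footprint. Acsl1 had 29.3 and 25.6 TPM in P42 retinas, against 5.72 and 4.98 TPM in E15.5 retinas, with 2.16 and 2.25. Acsl3 was lower at P42 in kidney and lung too. It had 13.5 and 13.5 TPM in P42 kidneys, against 61.2 and 34.7 TPM in E15.5 kidneys, with changes of -1.70 by mRNA and -1.65 by footprint. In lung it had 11.1 and 10.5 TPM in P42 lungs, against 40.8 and 41.3 TPM in E15.5 lungs, with -1.83 by mRNA and -1.05 by footprint, the footprint call being lost without P42 replicate 2 (-0.93). Neither the kidney nor the lung changes of Acsl3 held under every scaling.

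In the carnitine shuttle, the 3 Cpt1 genes encode the regulated outer-membrane enzyme in its liver (Cpt1a), muscle (Cpt1b) and neural (Cpt1c) forms, the last of which is an endoplasmic reticulum protein with little activity. Cpt1a (chromosome 19, 3322334 to 3385733, plus strand) had 178 and 202 TPM in P42 livers, against 13.97 and 11.4 TPM in E15.5 livers by mRNA. Its change in liver was 3.80 (SE 0.22, adjusted p = 3.01e-13) by mRNA and 3.99 (SE 0.23, adjusted p = 3.7e-11) by footprint. It rose in kidney too, with 222 and 280.3 TPM in P42 kidneys, against 49.9 and 27.5 TPM in E15.5 kidneys, and in retina, with 186 and 151 TPM in P42 retinas, against 26.3 and 26.7 TPM in E15.5 retinas, with changes of 2.72 in kidney and 2.61 in retina by mRNA, and 2.71 and 2.35 by footprint. Stages did not overlap in any of these tissues. In heart Cpt1a had 14.4 and 12.2 TPM in P42 hearts, against 42.7 and 41.7 TPM in E15.5 hearts, a change of -1.601 with the deposited TPM that turned to 0.34 with median-of-ratios scaling.

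Cpt1b was high in heart at both stages, with 126 and 130 TPM in P42 hearts, against 219.7 and 207 TPM in E15.5 hearts by mRNA and 132 and 117 TPM in P42 hearts, against 189.8 and 191 TPM in E15.5 hearts by footprint. Its heart changes of -0.73 (SE 0.22, adjusted p = 0.00355) by mRNA and -0.61 (SE 0.23, adjusted p = 0.0213) by footprint were not called. Both were smaller in size than those of the median gene, -1.61 by mRNA and -1.014 by footprint, so their direction rests on the deposited scale. Of the Cpt1 mRNA it took 89.4% and 91.1% in P42 hearts, against 82.1% and 82.6% in E15.5 hearts. In kidney it had 31.2 and 36.9 TPM in P42 kidneys, against 4.49 and 2.73 TPM in E15.5 kidneys, a change of 2.95 (SE 0.22, adjusted p = 4.8e-11). Of the Cpt1 mRNA of liver, Cpt1a took 99.3% and 99.4% in P42 livers, against 57.2% and 71.3% in E15.5 livers, where Cpt1b averaged 25.5%. Cpt1b itself had 0.938 and 1.07 TPM in P42 livers, against 4.14 and 5.96 TPM in E15.5 livers, a change of -1.58, in the livers whose skeletal muscle and cardiomyocyte markers are given above. Cpt1c was the main form in P42 brain, with 62.4% and 68.2% in P42 brains, against 45.5% and 46.7% in E15.5 brains. It had 36.8 and 36.0 TPM in P42 brains, against 24.2 and 23.7 TPM in E15.5 brains. Its brain change was 0.58 (SE 0.20, adjusted p = 0.0117) by mRNA and 1.64 (SE 0.19, adjusted p = 7.75e-07) by footprint, and in kidney it fell by mRNA, with 0.542 and 0.651 TPM in P42 kidneys, against 9.87 and 5.70 TPM in E15.5 kidneys, a change of -2.42. Cpt1b shares exon bases with Gm44502.

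**Figure D4:**
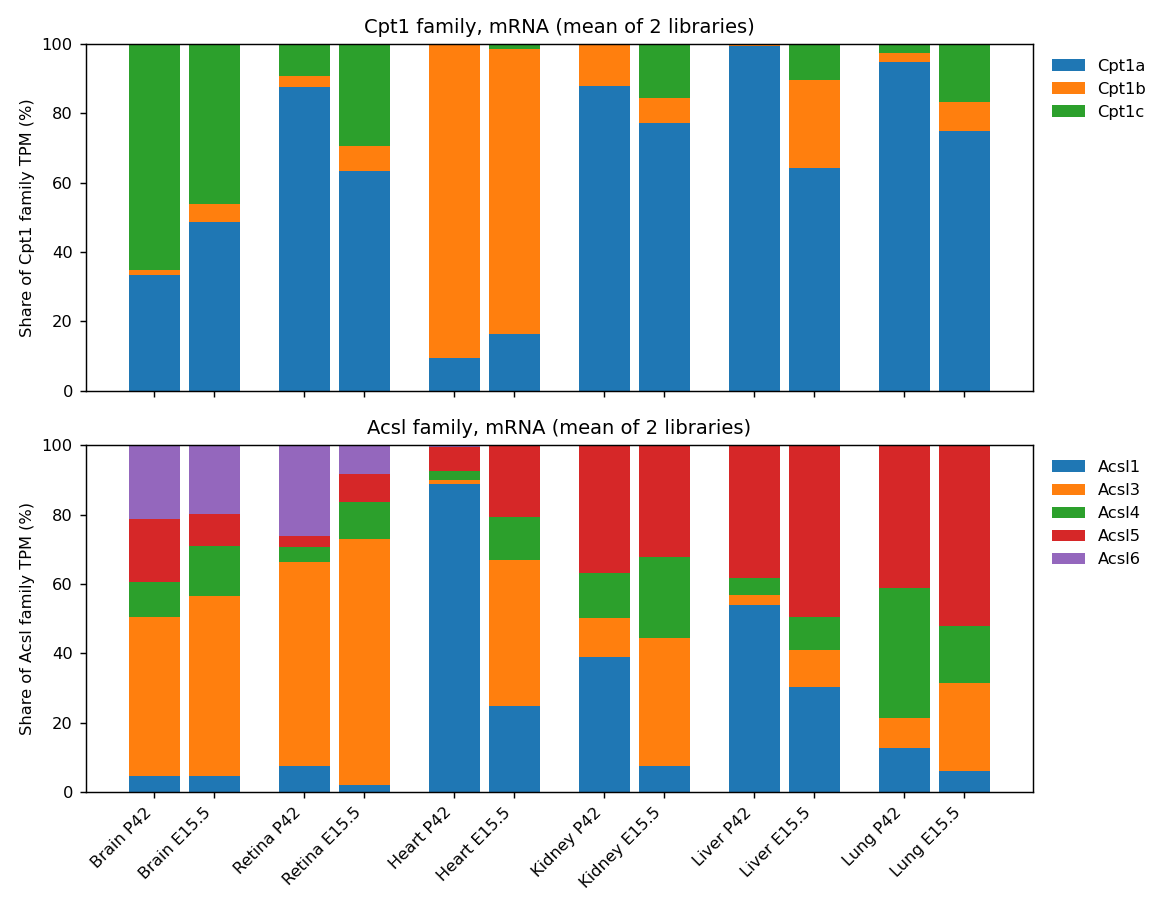
Share (%) of each isoform in the summed mRNA TPM of the Cpt1 family (top) and the Acsl family (bottom), by tissue with P42 left of E15.5. Bars are means of 2 libraries. Cpt1b fills most of the heart bars at both stages, Cpt1c 65.3% of the P42 brain bar, and Acsl1 most of the P42 heart bar but not the E15.5 one.

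The inner-membrane enzyme Cpt2 and the carrier Slc25a20 complete the shuttle, and Crat exchanges short acyl groups between carnitine and CoA. Cpt2 rose in kidney, with 180.5 and 186 TPM in P42 kidneys, against 50 and 31.1 TPM in E15.5 kidneys, by 2.19 by mRNA and 2.07 by footprint. In heart it had 123 and 118 TPM in P42 hearts, against 51.2 and 55.2 TPM in E15.5 hearts by footprint, a change of 1.17 (SE 0.26, adjusted p = 0.000623). Slc25a20 rose in liver, with 61.3 and 58.1 TPM in P42 livers, against 12.2 and 11.2 TPM in E15.5 livers, by 2.25 and 1.78. Crat rose in kidney, with 94.2 and 90.8 TPM in P42 kidneys, against 25.8 and 15.5 TPM in E15.5 kidneys, by 2.15 and 1.73. In heart Crat had 131 and 112 TPM at P42 and 122 and 113 TPM at E15.5, a change of 0.05 that was not called. With median-of-ratios scaling 4 of the 6 shuttle genes were called higher in heart by mRNA (20.9% of all genes).

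Of the 13 mitochondrial beta-oxidation genes, 10 rose in kidney by mRNA and 7 by footprint, 9 and 4 in liver, and 3 and 3 in heart, where 2 fell by footprint. The shares of all genes called higher were 13.1% and 12.2% in kidney, 13.4% and 10.2% in liver, and 2.73% and 10.2% in heart, where 50.6% were lower by footprint. Their median change by mRNA was 1.53 in kidney, 1.19 in liver and 0.24 in heart, against medians over all tested genes of -0.81, -0.89 and -1.61. With median-of-ratios scaling 13 of the 13 were called higher in heart by mRNA (20.9% of all genes) and 9 by footprint (22.3%). In brain 0 of 13 were called in either direction by mRNA with limma on the deposited TPM (11.7% of all genes higher and 36.0% lower). At an unadjusted p below 0.05, 5 were higher and 4 lower. With median-of-ratios scaling 6 were called higher (22.9% of all genes).

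The acyl-CoA dehydrogenases start each turn of the cycle, by chain length: Acadvl for very long, Acadl for long, Acadm for medium and Acads for short chains. Acadl was the most abundant of them in heart at both stages, with 659 and 589.6 TPM in P42 hearts, against 823 and 822 TPM in E15.5 hearts, a change of -0.40 (SE 0.20, adjusted p = 0.0689). Acadm had 396 and 379.5 TPM in P42 kidneys, against 81.3 and 48.6 TPM in E15.5 kidneys, and rose there by 2.60 (SE 0.20, adjusted p = 5.49e-11) by mRNA and 2.70 (SE 0.21, adjusted p = 3.76e-09) by footprint. In heart Acadm had 244 and 207 TPM in P42 hearts, against 180.4 and 171 TPM in E15.5 hearts, a change of 0.35 that was not called. With median-of-ratios scaling Acadl and Acadm were both called higher in heart by mRNA. Acadvl had 256 and 241 TPM in P42 kidneys, against 55.7 and 31.5 TPM in E15.5 kidneys, a change of 2.54, and 102 and 96.4 TPM in P42 retinas, against 29.7 and 26.4 TPM in E15.5 retinas, a change of 1.79.

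Acads fell in retina and lung by both assays and under every scaling. It had 2.90 and 3.79 TPM in P42 retinas, against 43.9 and 39.8 TPM in E15.5 retinas by mRNA, a change of -3.31 (SE 0.22, adjusted p = 6.78e-12), and 1.12 and 2.90 TPM in P42 retinas, against 13.8 and 15.8 TPM in E15.5 retinas by footprint, a change of -2.46 (SE 0.42, adjusted p = 6.27e-05). In lung it had 13.9 and 8.69 TPM in P42 lungs, against 61.8 and 52.5 TPM in E15.5 lungs, a change of -2.27 by mRNA and -1.77 by footprint, the footprint call being lost without P42 replicate 2 (-0.96). In retina Acadm rose, with 59.1 and 59.5 TPM in P42 retinas, against 25.5 and 28.0 TPM in E15.5 retinas, and changes of 1.12 and 1.53. In liver Acads had 119.8 and 147 TPM in P42 livers, against 39.3 and 42.1 TPM in E15.5 livers, a change of 1.68 by mRNA and 0.73, not called, by footprint. Exons of Acadvl overlap Dvl2.

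Hadha and Hadhb encode the alpha and beta subunits of the mitochondrial trifunctional protein and start head to head on chromosome 5, on opposite strands. By the GENCODE M21 annotation, 85 bases lie between the start of Hadha (30155162, minus strand) and the start of Hadhb (30155248, plus strand). They are shown because both subunits share them: chr5:30155163-30155247, plus strand, GRCm38.p6, with its 9 CG pairs in capitals.
Hadha-Hadhb: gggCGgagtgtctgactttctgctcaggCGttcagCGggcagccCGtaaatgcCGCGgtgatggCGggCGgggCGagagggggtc

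The values of the subunits were not equal. In lung Hadha had 21.7 and 16.5 TPM in P42 lungs, against 62.5 and 64.3 TPM in E15.5 lungs, a change of -1.69 (SE 0.19, adjusted p = 3.76e-08) by mRNA that did not hold under every scaling (-0.41 with median-of-ratios). Hadhb had 14.1 and 12.6 TPM in P42 lungs, against 25.2 and 23.5 TPM in E15.5 lungs, a change of -0.83 (SE 0.20, adjusted p = 0.000735). In kidney Hadha had 59.0 and 70.3 TPM in P42 kidneys, against 64.2 and 38.2 TPM in E15.5 kidneys, a change of 0.37, and Hadhb 50.1 and 62.3 TPM in P42 kidneys, against 31.7 and 18.1 TPM in E15.5 kidneys, a change of 1.19 (0.80 and not called without E15.5 replicate 2). In heart Hadhb had 129 and 118 TPM in P42 hearts, against 41.1 and 60.6 TPM in E15.5 hearts by footprint, a change of 1.29 (SE 0.22, adjusted p = 4.15e-05), and Hadha 191 and 182 TPM in P42 hearts, against 111 and 174 TPM in E15.5 hearts, a change of 0.42 (SE 0.22, adjusted p = 0.0812). The difference between the subunits was not tested. Exons of Hadha overlap Garem2.

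Of the later steps, Acaa2, the mitochondrial thiolase, was the most abundant member of the cycle in liver, with 1152 and 1346 TPM in P42 livers, against 318 and 316 TPM in E15.5 livers, and rose by 1.97 (SE 0.20, adjusted p = 7.9e-09) by mRNA and 1.24 (SE 0.21, adjusted p = 3.05e-05) by footprint. In kidney it had 444 and 464 TPM in P42 kidneys, against 167 and 101 TPM in E15.5 kidneys, a change of 1.8. Hadh, the short-chain hydroxyacyl-CoA dehydrogenase, had 250.1 and 236 TPM in P42 kidneys, against 83.0 and 48.9 TPM in E15.5 kidneys, a change of 1.91 by mRNA and 1.32 by footprint. In retina it had 11.9 and 13.3 TPM in P42 retinas, against 43.4 and 43.1 TPM in E15.5 retinas, with changes of -1.70 and -1.58. Hsd17b10, another hydroxyacyl-CoA dehydrogenase that is also a subunit of mitochondrial RNase P, had 25.6 and 29.9 TPM in P42 retinas, against 129 and 120.3 TPM in E15.5 retinas, with changes of -2.13 and -1.57. Echs1, the short-chain enoyl-CoA hydratase, had 51.8 and 63.9 TPM in P42 livers, against 25.6 and 23.8 TPM in E15.5 livers, a change of 1.19 by mRNA and 0.76, not called, by footprint.

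The auxiliary enzymes act on unsaturated fatty acids. Decr1, the mitochondrial dienoyl-CoA reductase, rose in heart, kidney and liver and fell in retina by both assays, each under every scaling. It had 126 and 130 TPM in P42 livers, against 27.8 and 19.7 TPM in E15.5 livers, and 124 and 117 TPM in P42 hearts, against 49.97 and 50.7 TPM in E15.5 hearts. In retina it had 8.95 and 9.85 TPM in P42 retinas, against 24.3 and 27.1 TPM in E15.5 retinas. By mRNA the heart changed by 1.24, kidney by 2.10, liver by 2.40 and retina by -1.36. By footprint, in the same order of tissues, the changes were 1.10, 1.53, 1.63 and -1.27, the last at -0.99 without P42 retina replicate 1. The test of liver against retina gave 3.76 (SE 0.29, adjusted p = 2.42e-10) by mRNA, and that of kidney against retina for Hadh gave 3.62 (SE 0.26, adjusted p = 1.05e-10). Of the enoyl-CoA isomerases, Eci2 had 100.4 and 112 TPM in P42 livers, against 22.1 and 19.2 TPM in E15.5 livers, and rose by 2.31 and 2.82, while Eci1 had 231 and 225 TPM in P42 livers, against 86.3 and 94.2 TPM in E15.5 livers, with 1.33 by mRNA and 0.92, not called, by footprint.

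Electrons from the dehydrogenases pass to the electron transfer flavoprotein, encoded by Etfa and Etfb, and from there to its ubiquinone reductase, Etfdh. Etfb had 792 and 627 TPM in P42 kidneys, against 179 and 101 TPM in E15.5 kidneys, a change of 2.38 (SE 0.22, adjusted p = 2.37e-09), and 593 and 743 TPM in P42 livers, against 177 and 200.5 TPM in E15.5 livers, a change of 1.81. Etfa had 322 and 329 TPM in P42 kidneys, against 140.1 and 72.2 TPM in E15.5 kidneys, a change of 1.68. By footprint all 3 rose in kidney, by 1.38, 1.15 and 1.54 for Etfa, Etfb and Etfdh. In heart Etfa had 279 and 220.5 TPM in P42 hearts, against 283 and 273 TPM in E15.5 hearts, and was not called (-0.16). With median-of-ratios scaling all 3 genes were called higher in heart by mRNA (20.9% of all genes). In retina Etfdh had 11.1 and 9.98 TPM in P42 retinas, against 22.7 and 24.9 TPM in E15.5 retinas, a change of -1.11 by mRNA that did not hold under every scaling. The repeat with 2 mismatches before Etfa lies 77 to 65 bases before the start, on the other strand, within chr9:55512278-55512350, minus strand, and is shown in capitals.
Etfa: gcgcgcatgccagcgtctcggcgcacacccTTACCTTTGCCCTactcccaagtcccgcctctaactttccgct

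The 5 peroxisomal genes all rose in liver by both assays and under every scaling. With the deposited TPM alone, 13.4% of all genes rose by mRNA and 10.2% by footprint. Acaa1a and Acaa1b encode near-identical peroxisomal thiolases. Acaa1b (chromosome 9, 119148023 to 119157093, minus strand) had 375 and 591 TPM in P42 livers, against 7.92 and 8.64 TPM in E15.5 livers by mRNA, a change of 5.67 (SE 0.22, adjusted p = 3.05e-16), and 173 and 315 TPM in P42 livers, against 6.53 and 5.48 TPM in E15.5 livers by footprint, a change of 5.07 (SE 0.30, adjusted p = 5.8e-11). Acaa1a had 48.5 and 69.7 TPM in P42 livers, against 11.01 and 14.9 TPM in E15.5 livers, with changes of 2.09 and 1.69. Of the pair's mRNA Acaa1b took 88.6% and 89.5% in P42 livers, against 36.6% and 41.8% in E15.5 livers. Reads of such close copies can be assigned to either, and exons of Acaa1a and Acaa1b overlap Myd88 and Dlec1. In kidney Acaa1b had 205 and 234 TPM in P42 kidneys, against 9.90 and 5.64 TPM in E15.5 kidneys, with changes of 4.69 by mRNA and 3.44 by footprint. In lung it had 7.26 and 9.83 TPM in P42 lungs, against 0.593 and 0.823 TPM in E15.5 lungs, a change of 2.47.

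Ehhadh, the peroxisomal bifunctional enzyme for straight chains (chromosome 16, 21761287 to 21787807, minus strand), was called highest in kidney at P42 by mRNA. By footprint it was not called highest in any tissue at P42, and at E15.5 it was called highest in liver by both assays. It had 282 and 383 TPM in P42 kidneys, against 6.52 and 4.25 TPM in E15.5 kidneys by mRNA, a change of 5.71 (SE 0.20, adjusted p = 1.07e-16), and 443 and 419.6 TPM in P42 kidneys, against 6.07 and 5.35 TPM in E15.5 kidneys by footprint, a change of 6.01 (SE 0.44, adjusted p = 1.37e-09). In liver it was already present before birth, with 126 and 156 TPM in P42 livers, against 27.3 and 25.6 TPM in E15.5 livers, and changed by 2.37 and 2.89. Hsd17b4, the bifunctional enzyme that also serves branched chains, had 144 and 169.8 TPM in P42 livers, against 48.8 and 44.3 TPM in E15.5 livers, with 1.73 and 1.78. Decr2, the peroxisomal dienoyl-CoA reductase, had 254 and 258 TPM in P42 livers, against 22.2 and 21.2 TPM in E15.5 livers, with 3.50 and 3.55. No library of either stage overlapped the other for these genes in liver.

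In heart no peroxisomal gene was called higher by mRNA with the deposited TPM, in the fit where the median gene was lower by 1.61. With median-of-ratios scaling 2 of the 5 were called higher by mRNA (20.9% of all genes) and 0 lower (13.7%). By footprint that scaling gave 2 higher (22.3%) and 0 lower (10.2%). Decr2 had 7.09 and 6.66 TPM in P42 hearts, against 30.8 and 30.4 TPM in E15.5 hearts, a change of -2.00 (SE 0.18, adjusted p = 1.32e-09) by mRNA and -1.29 (SE 0.26, adjusted p = 0.000217) by footprint. With median-of-ratios scaling these became -0.13 and -0.12 and were not called. Hsd17b4 had 24.9 and 19.2 TPM in P42 hearts, against 58.4 and 56.2 TPM in E15.5 hearts, a change of -1.35 that turned to 0.62 with that scaling. Acaa1a had 7.21 and 8.16 TPM in P42 hearts, against 24.4 and 18.3 TPM in E15.5 hearts by footprint, a change of -1.35 (SE 0.29, adjusted p = 0.000354) that came to -0.12 with that scaling and was not called. Ehhadh had 5.69 and 5.74 TPM in P42 hearts, against 4.24 and 4.75 TPM in E15.5 hearts by mRNA, a change of 0.29 that was not called. In retina Acaa1a had 45.5 and 42.5 TPM in P42 retinas, against 13.8 and 10.0 TPM in E15.5 retinas, a change of 1.82 (SE 0.23, adjusted p = 4.15e-07) by mRNA and 0.87, not called, by footprint.

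Some footprint rises rested on levels that are small beside the tissue where the gene is highest. Acaa1b was called higher by footprint in brain, heart and lung at 2.53, 2.04 and 8.88 TPM on average at P42, against 244 TPM in liver, while its mRNA averaged 0.656, 0.0170 and 8.55 TPM there. Ehhadh was called higher by footprint in brain (5.31 TPM) and lung (17.2 TPM), at 1.23% and 3.98% of its kidney level. In lung it had 25.0 and 9.35 TPM in P42 lungs, against 2.76 and 2.68 TPM in E15.5 lungs by footprint. Its mRNA change was 0.08 in brain and -0.21 in lung, neither called. The brain footprint call was lost without P42 replicate 1 (1.31), P42 replicate 2 (1.29) or E15.5 replicate 1 (0.92). The lung call was kept without P42 replicate 1, at 1.48.

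Markers of other organs were present in some of these Ribo-seq libraries. The 5 hepatocyte markers summed to 257 and 685 TPM in P42 hearts, against 134 and 197 TPM in E15.5 hearts by footprint, beside 0.395 and 0.992 TPM in P42 hearts, against 24.5 and 25.3 TPM in E15.5 hearts by mRNA. The 6 proximal tubule markers summed to 33.5 and 1498 TPM in P42 lungs, against 6.42 and 6.43 TPM in E15.5 lungs by footprint, with Kap alone at 1280.2 and 3.74 TPM in replicates 1 and 2 at P42, beside 7.07 and 9.46 TPM in P42 lungs, against 20.9 and 22.4 TPM in E15.5 lungs for the list by mRNA. In retina the tubule markers summed to 1.71 and 514 TPM in P42 retinas, against 2.80 and 4.14 TPM in E15.5 retinas by footprint, with Kap at 0.176 and 458 TPM in P42 replicates 1 and 2. In heart they summed to 139 and 150.3 TPM in P42 hearts, against 1.599 and 3.15 TPM in E15.5 hearts by footprint, and the 5 lung epithelial markers to 463 and 1590.3 TPM in P42 hearts, against 0.569 and 6.30 TPM in E15.5 hearts. In brain the hepatocyte markers summed to 987 and 1211 TPM in P42 brains, against 3066 and 3462 TPM in E15.5 brains by footprint and 170.4 and 4083 TPM in P42 brains, against 2320.3 and 2462 TPM in E15.5 brains by mRNA. They were led by Ttr, which choroid plexus also makes, and Alb, the albumin gene of liver, had 491 and 488 TPM in P42 brains, against 1001 and 1694 TPM in E15.5 brains by footprint and 2.44 and 22.8 TPM in P42 brains, against 0.283 and 0.528 TPM in E15.5 brains by mRNA. The part of transcripts from other organs in the low footprint levels was not tested. The calls at under 5% of the highest tissue's level were Acaa1b, Pdk4 and Ehhadh in brain and lung, Cd36, Acsl1 and Fabp3 in retina, Acaa1b in heart, and the fall of Cpt1b in liver. Leaving them out, an alternative chosen after seeing the data, left 9 rises in brain, 7 in retina, 9 in heart and 5 in lung, and 0 falls in liver, where limma had called the 1.

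The 3 linked genes rose together in heart. Pdk4, which inhibits pyruvate dehydrogenase and so spares glucose when fat is burned (chromosome 6, 5483351 to 5496309, minus strand), had 260.1 and 236 TPM in P42 hearts, against 19.5 and 21.7 TPM in E15.5 hearts by footprint. By mRNA it had 238 and 177 TPM in P42 hearts, against 42.0 and 42.6 TPM in E15.5 hearts. Ucp3, a mitochondrial carrier of muscle and heart, had 18.6 and 16.6 TPM in P42 hearts, against 0 and 0.0592 TPM in E15.5 hearts by footprint. By mRNA it had 50.5 and 48.6 TPM in P42 hearts, against 0.186 and 0.139 TPM in E15.5 hearts. Plin5, which coats lipid droplets beside mitochondria, had 33.3 and 34.8 TPM in P42 hearts, against 0.508 and 0.148 TPM in E15.5 hearts by footprint. By mRNA it had 79.1 and 65.1 TPM in P42 hearts, against 0.586 and 0.508 TPM in E15.5 hearts. No library of the stages overlapped, and the footprint changes were 3.53, 4.17 and 4.74 for Pdk4, Ucp3 and Plin5, beside 10.2% of all genes called higher.

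Outside the heart the 3 genes parted. Plin5 had 25.6 and 29.0 TPM in P42 livers, against 0.976 and 0.939 TPM in E15.5 livers, a change of 3.85 (SE 0.19, adjusted p = 1.8e-14), and 7.42 and 5.55 TPM in P42 kidneys, against 1.42 and 0.921 TPM in E15.5 kidneys, a change of 1.79. Pdk4 had 25.7 and 31.8 TPM in P42 kidneys, against 4.04 and 2.01 TPM in E15.5 kidneys, a change of 2.92 (SE 0.22, adjusted p = 4.71e-11), but 1.24 and 1.03 TPM in P42 livers, against 3.38 and 2.47 TPM in E15.5 livers, a change of -0.87 (SE 0.22, adjusted p = 0.000875). Ucp3 had 3.08 and 3.16 TPM in P42 brains, against 0 and 0.0303 TPM in E15.5 brains, a change of 2.02, and 1.70 and 2.38 TPM in P42 lungs, against 0.0309 and 0.0286 TPM in E15.5 lungs, a change of 1.55. Footprints of Ucp3 in those tissues did not pass the filter of 1 TPM and were not tested. In lung Pdk4 had 10.3 and 11.97 TPM in P42 lungs, against 4.44 and 3.35 TPM in E15.5 lungs, with changes of 1.32 by mRNA and 2.13 by footprint. The 7 adipocyte markers summed to 47.1 and 48.7 TPM in P42 hearts, against 12.1 and 12.8 TPM in E15.5 hearts, led by Cidea, with Ucp1 and Lep below 0.1 TPM in P42 hearts. In kidney they summed to 23.9 and 57.8 TPM in P42 kidneys, against 1.36 and 2.21 TPM in E15.5 kidneys. Their part in the changes of either tissue was not tested. The repeat before Ucp3 lies 51 to 39 bases before the start within chr7:100472910-100472982, plus strand, with the match in capitals, and is shown because Ucp3 was called highest in heart at P42.
Ucp3: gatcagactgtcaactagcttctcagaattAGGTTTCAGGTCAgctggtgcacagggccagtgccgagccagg

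Heart and liver both oxidize fatty acids in the adult, and the stage change of each member was compared between them in a test of the difference itself. By mRNA the change was higher in heart than in liver for 5 of 34 members (8.71% of all genes) and lower for 19 (40.1%). By footprint it was higher for 3 (13.2%) and lower for 16 (19.3%). The median over members was -1.12 by mRNA and -0.95 by footprint, against -0.72 and -0.21 over all genes. Other scalings moved these counts, and the share of all genes under them is not given. The counts that follow can therefore not be set against it. By mRNA 8 were higher and 12 lower with median-of-ratios, and 8 and 11 with the mitochondrially encoded genes left out. By footprint 7 were higher and 10 lower with equal library sums, 6 and 15 with median-of-ratios, and 5 and 12 with the mitochondrially encoded genes left out. Without P42 liver Ribo-seq replicate 2 the 3 higher by footprint became 5. The members whose change was higher in heart by both assays under every scaling were Cd36, Pdk4 and Plin5. Pdk4 differed by 3.12 (SE 0.31, adjusted p = 1.66e-08) by mRNA and 4.26 (SE 0.40, adjusted p = 2e-07) by footprint.

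Changes lower in heart by both assays under every scaling belonged to Acsl3, Acsl5, Cpt1a, Eci2, Acaa1a, Hsd17b4 and Decr2. Of these 7, 3 are in the peroxisomal list, and Eci2 was counted in the mitochondrial one. Decr2 differed by -5.51 (SE 0.26, adjusted p = 1.96e-13) by mRNA and -4.84 (SE 0.37, adjusted p = 1.69e-08) by footprint. Cpt1a differed by -5.40 (SE 0.30, adjusted p = 3.08e-12) and -4.70 (SE 0.33, adjusted p = 5.89e-09). Fabp3 differed by 4.56 (SE 0.46, adjusted p = 2.39e-08) by mRNA, with no call by footprint. Acaa2, a mitochondrial enzyme, differed by -1.47 (SE 0.29, adjusted p = 0.000127) and -1.13 (SE 0.29, adjusted p = 0.00482), which did not hold under every scaling.

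Translational efficiency was taken as the ratio of footprint to mRNA TPM of the same gene, and its change between stages was tested as an interaction in a limma fit over all 48 libraries, for genes with at least 5 TPM of mRNA at each stage of the tissue. In lung 14 of 29 members were higher at P42 (39.4% of all genes) and 1 lower (1.28%), and the median gene itself was higher by 0.81. In brain 5 of 30 were higher (27.7%) and 0 lower by limma (2.28%), with 1 lower at an unadjusted p below 0.05. In retina 3 of 30 were higher (11.8%) and 0 lower by limma (1.87%), with 1 lower at an unadjusted p below 0.05. In heart 3 of 29 were higher (10.7%) and 2 lower (4.94%). In kidney 0 of 31 were higher by limma (2.11%), with 0 higher at an unadjusted p below 0.05, and 3 lower (4.37%). In liver 1 of 30 was higher (3.89%) and 3 lower (19.6%). The calls in both directions in heart, 5 with the deposited TPM, were 8 with median-of-ratios scaling, 9 with the mitochondrially encoded genes left out and 17 with equal library sums. Those in lung, 15 with the deposited TPM, were 6 with median-of-ratios scaling and 8 with equal library sums. The share of all genes under these other scalings is not given. Single libraries moved several of these counts: the calls in kidney ranged from 0 without P42 mRNA replicate 1 to 11 without E15.5 mRNA replicate 1, and were 1 without E15.5 mRNA replicate 2, P42 Ribo-seq replicate 2 or E15.5 Ribo-seq replicate 1, and 0 without E15.5 Ribo-seq replicate 2. The calls in retina were 1 without E15.5 Ribo-seq replicate 2, those in heart 3 without P42 mRNA replicate 2, and those in liver 9 without P42 Ribo-seq replicate 2.

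Of these calls, 11 held under every scaling. Cd36 in lung had a log2 ratio of footprint to mRNA of 2.05 at P42, against -0.40 at E15.5. Its efficiency changed by 2.45 (SE 0.50, adjusted p = 0.000156). Acsl5 in lung changed by 2.73 (SE 0.29, adjusted p = 4.61e-08), with 86.1 and 72.5 TPM in P42 lungs, against 18.9 and 18.9 TPM in E15.5 lungs by footprint and 55.4 and 46.8 TPM in P42 lungs, against 82.8 and 86.3 TPM in E15.5 lungs by mRNA. Acsl4 in lung changed by 2.10 (SE 0.36, adjusted p = 3.02e-05) and Etfdh by 2.02 (SE 0.30, adjusted p = 4.03e-06). In brain Acsl4 changed by 2.01 (SE 0.36, adjusted p = 6.09e-05) and Acsl6 by 1.75 (SE 0.21, adjusted p = 1.62e-07), and in liver Acsl5 changed by 1.26 (SE 0.29, adjusted p = 0.00116). The Acsl genes thus make up most of these rises, over lung, brain and liver. In brain Acsl4 had 84.8 and 80.2 TPM in P42 brains, against 10.2 and 17.5 TPM in E15.5 brains by footprint and 27.5 and 28.9 TPM in P42 brains, against 20.6 and 17.9 TPM in E15.5 brains by mRNA. Retina held the other rises, Etfa at 1.37 (SE 0.35, adjusted p = 0.00676) and Decr2 at 1.29 (SE 0.32, adjusted p = 0.00483).

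Fabp3 went the other way in 3 tissues. Its efficiency changed by -1.99 (SE 0.48, adjusted p = 0.00884) in kidney and -1.46 (SE 0.48, adjusted p = 0.0102) in lung, both under every scaling, and by -1.803 (SE 0.48, adjusted p = 0.0078) in heart, which did not hold under every scaling. In P42 hearts its footprints were 933 and 866 TPM beside mRNA of 4432 and 3791 TPM. The efficiency of Etfb changed by -1.24 (SE 0.34, adjusted p = 0.00896) in heart, -1.23 (SE 0.34, adjusted p = 0.0214) in kidney and -1.06 (SE 0.34, adjusted p = 0.0154) in liver, which did not hold under every scaling. Lower calls that did not hold either were Hadh and Etfa in liver (-1.17 and -1.30) and Acaa1b in kidney (-1.26). Calls higher with the deposited TPM that did not hold under every scaling were Acsl3, Cpt1c and Etfdh in brain, Acsl3 in retina, and Acsl1, Acsl5 and Pdk4 in heart. In lung they were Cpt1a, Cpt2, Hadha, Hadhb, Echs1, Eci1, Eci2, Decr1, Etfa and Hsd17b4, with changes of 1.06 to 1.59.

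**Figure D5:**
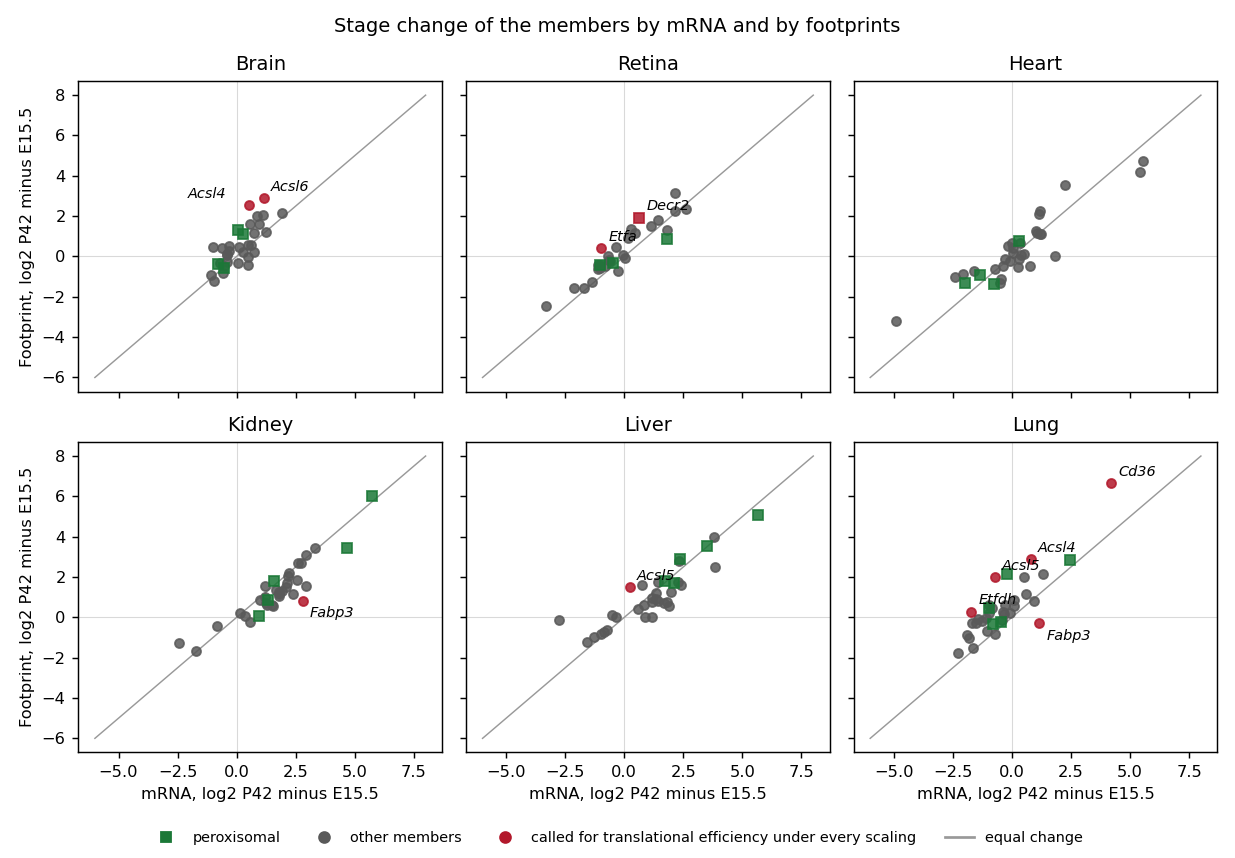
Log2 change by footprint (vertical) against log2 change by mRNA (horizontal), P42 minus E15.5, of the members tested in both assays, by tissue. Squares are peroxisomal genes, circles the other members, red marks members called for translational efficiency under every scaling, and the grey line marks equal change. Cd36, Acsl4 and Acsl5 lie above the line in lung, and Fabp3 lies below it in kidney and lung.

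Genes of the same pathways outside the set were followed from lists. Of 15 other peroxisomal genes, 12 rose (13.1% of all genes) and 1 fell (43.9%) by mRNA in kidney, and 10 of 15 rose in liver (13.4%). By footprint 12 of 15 rose in kidney (12.2%) and 12 of 15 in liver (10.2%). In heart, of 14 tested, 1 rose (2.73%) and 4 fell (74.6%) by mRNA. With median-of-ratios scaling 9 were higher (20.9%) and 0 lower (13.7%). By footprint with the deposited TPM 3 rose (10.2%) and 0 fell (50.6%) in limma, with 4 lower at an unadjusted p below 0.05. Phyh, which starts the breakdown of phytanic acid, had 2551 and 2129 TPM in P42 livers, against 109.9 and 76.7 TPM in E15.5 livers, a change of 4.65. Acox2, an oxidase for branched chains, had 80.6 and 94.7 TPM in P42 kidneys, against 3.70 and 2.12 TPM in E15.5 kidneys, a change of 4.53. The heart mRNA rise was Ech1, a dienoyl-CoA isomerase, with 555 and 529.8 TPM in P42 hearts, against 116 and 106 TPM in E15.5 hearts, a change of 2.28.

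Of the 9 other genes of mitochondrial oxidation, 7 rose by mRNA in kidney (13.1% of all genes) and 5 in liver (13.4%). Elsewhere 3 of 8 tested rose in brain (11.7%), 2 of 9 in retina (18.6%) and 1 of 8 in heart (2.73%). In heart 1 of 8 fell (74.6%), and in lung 2 of 9 fell (53.5%). Pdk2, a pyruvate dehydrogenase kinase, had 87.5 and 89.5 TPM in P42 livers, against 7.42 and 8.83 TPM in E15.5 livers, a change of 3.30, and 92.6 and 97.2 TPM in P42 brains, against 30.8 and 31.2 TPM in E15.5 brains, a change of 1.58. Of the ketone body genes, Oxct1, which lets tissues use ketone bodies, had 2.85 and 2.49 TPM in P42 livers, against 27.3 and 28.8 TPM in E15.5 livers, a change of -2.99 (SE 0.21, adjusted p = 1.16e-11), but 646 and 653 TPM in P42 kidneys, against 215 and 118 TPM in E15.5 kidneys, a change of 2.02.

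Of the 8 genes of fatty acid synthesis, 1 rose (2.73% of all genes) and 5 fell (74.6%) by mRNA in heart, 3 rose (13.1%) and 5 fell (43.9%) in kidney, and 3 rose (13.4%) and 3 fell (47.0%) in liver. In heart 3 were higher (20.9%) and 3 lower (13.7%) by mRNA with median-of-ratios scaling. By footprint with the deposited TPM 3 rose (10.2%) and 4 fell (50.6%). Scd2, the stearoyl-CoA desaturase of brain and embryo, had 2.34 and 2.27 TPM in P42 livers, against 385 and 294 TPM in E15.5 livers, a change of -6.68 (SE 0.23, adjusted p = 4.24e-17), while Scd1, the adult liver form, had 1655 and 1237 TPM in P42 livers, against 69.2 and 53.9 TPM in E15.5 livers, a change of 4.53 (SE 0.22, adjusted p = 2.46e-14). Of 10 other transport and binding genes, 5 rose (13.4% of all genes) and 2 fell (47.0%) in liver by mRNA. Fabp1, the liver fatty acid binding protein, had 29490 and 28830 TPM in P42 livers, against 160.1 and 100.3 TPM in E15.5 livers, a change of 7.83 (SE 0.36, adjusted p = 6.82e-15). Slc27a2, a very-long-chain acyl-CoA synthetase and transporter, had 1943 and 2118 TPM in P42 kidneys, against 27.1 and 14.6 TPM in E15.5 kidneys, a change of 6.601. Lpl, the lipase that frees fatty acids from lipoproteins, had 477 and 528 TPM in P42 hearts, against 98.5 and 94.1 TPM in E15.5 hearts, a change of 2.37. Each gene named in these lists moved the same way by footprint and under every scaling.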

How the data were processed

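RNA-seq of polyadenylated RNA and Ribo-seq were made from the same tissues and stages. The authors deposited TPM of exon reads by gene and library, and per the submitters' processing notes the tools were CASAVA 1.8.2, cutadapt 1.8.1, TopHat2 2.0.14 and featureCounts 1.6.2 with the build GRCm38.p6. No label or header names the annotation release or the use of strand. Identifiers without their version were matched to GENCODE M21, 22029 of 22055.

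Groups came from the sample titles. Log2(TPM + 1) was fitted in R 4.3.3 with limma 3.58.1 (trend, empirical Bayes), with the 24 libraries of an assay in 12 groups, so that all groups share 1 estimate of the spread with 12 residual degrees of freedom. Translational efficiency used all 48 libraries. A fold change on this scale understates the change of low genes. Genes with at least 1 TPM in at least 2 libraries and a tissue mean of at least 1 TPM were tested, p-values were adjusted by Benjamini-Hochberg over all of them, and calls needed a change of at least 1 on the log2 scale with an adjusted p under 0.05. Alternatives were 2 pseudocounts, 2 filters, 3 scalings, no variance trend, a replicate block, the tissue's libraries alone and each library left out. The fits were also run on simulated data, whose outcome is not given here. No TPM table gives counts, so no count test was run.

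The 37 members and the lists were chosen with earlier results of these data known. Named in full were 17 fixed members, for every tissue up to 3 risers and 2 fallers with the biggest mRNA change where both assays made the call, members called for efficiency, and up to 3 genes of each other list in a tissue, apart from items that are not reported here. Acads, Acadvl and further members were added so that each step is described. Promoter sequences are from RefSeq (GRCm38.p6), where 32 members matched; Acaa2, Decr1, Hsd17b4, Cpt1b and Crat did not.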

Additional observations from a re-analysis of the deposited data

Results flagged for a closer look

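The stage change of 10 members differed between heart and liver by an interaction test in limma, with the call holding by both assays and under every scaling, and the values below are by mRNA on the log2 scale. The change was higher in heart for Cd36 by 1.88, Pdk4 by 3.12 and Plin5 by 1.71. Differences below 0, a change lower in heart, were -3.62 for Acsl3, -2.32 for Acsl5, -5.40 for Cpt1a and -2.59 for Eci2. The genes listed as peroxisomal among them were Acaa1a at -2.84, Hsd17b4 at -3.08 and Decr2 at -5.51.

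Members called in opposite directions in 2 tissues were tested the same way. Hadh differed by 3.62 between kidney and retina, and Decr1 by 3.76 between liver and retina. Groups of 2 libraries are too small for a rule on single libraries that stand apart.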

How the results depend on the processing

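Of the 38 counts of members, those named here moved by more than 1.5 times, and the cause was not tested. Shares of all genes for the median-of-ratios counts between stages stand above. For the other counts named here they are not given. With median-of-ratios scaling the counts of members were 17 higher by mRNA in brain, 0 lower by mRNA in brain, 4 lower by mRNA in retina, 28 higher by mRNA in heart, 1 lower by mRNA in heart, 1 lower by mRNA in kidney, 2 lower by mRNA in liver, 12 higher by mRNA in lung, 1 lower by mRNA in lung, 8 changes higher in heart than in liver by mRNA, 12 changes lower in heart than in liver by mRNA, 23 higher by footprint in heart, 1 lower by footprint in heart, 0 lower by footprint in kidney, 28 higher by footprint in liver, 0 lower by footprint in liver, 6 changes higher in heart than in liver by footprint, 8 efficiency calls in heart and 6 efficiency calls in lung. With the mitochondrially encoded genes left out they were 1 lower by mRNA in brain, 4 lower by mRNA in retina, 21 higher by mRNA in heart, 4 lower by mRNA in heart, 8 changes higher in heart than in liver by mRNA, 11 changes lower in heart than in liver by mRNA, 1 lower by footprint in heart, 5 changes higher in heart than in liver by footprint and 9 efficiency calls in heart. With equal library sums, chosen after seeing the data, they were 4 lower by mRNA in brain, 6 higher by mRNA in heart, 7 lower by mRNA in liver, 3 lower by footprint in brain, 16 higher by footprint in heart, 1 lower by footprint in heart, 6 lower by footprint in lung, 7 changes higher in heart than in liver by footprint, 10 changes lower in heart than in liver by footprint, 17 efficiency calls in heart and 8 efficiency calls in lung. With a pseudocount of 0.25 they were 4 lower by mRNA in brain, 2 lower by footprint in brain and 3 lower by footprint in liver. With a pseudocount of 4 they were 3 higher by mRNA in brain, 0 lower by mRNA in brain, 4 lower by mRNA in retina, 2 lower by mRNA in liver, 3 higher by mRNA in lung, 0 lower by footprint in brain, 1 lower by footprint in kidney, 0 lower by footprint in liver and 3 efficiency calls in brain. With no filter on low values they were 5 changes higher in heart than in liver by footprint, 9 efficiency calls in brain, 10 efficiency calls in heart, 5 efficiency calls in kidney and 7 efficiency calls in liver. With a filter of 5 TPM they were 3 higher by mRNA in brain, 1 lower by mRNA in brain, 1 lower by mRNA in kidney, 1 lower by mRNA in liver, 3 higher by mRNA in lung, 3 changes higher in heart than in liver by mRNA, 1 lower by footprint in kidney, 0 lower by footprint in liver, 3 efficiency calls in brain and 8 efficiency calls in lung. With the libraries of the tissue alone in the fit they were 0 lower by footprint in brain and 1 efficiency call in kidney. Without footprint calls below 5% of the highest tissue, chosen after seeing the data, they were 0 lower by footprint in liver and 5 higher by footprint in lung. With 1 library left out at a time the ranges were 1 to 3 lower by mRNA in brain, 3 to 7 efficiency calls in heart, 0 to 11 efficiency calls in kidney, 3 to 5 higher by mRNA in lung, 0 to 4 lower by footprint in brain, 1 to 4 efficiency calls in retina, 1 to 2 lower by footprint in kidney, 0 to 3 lower by footprint in liver, 3 to 5 changes higher in heart than in liver by footprint, 3 to 9 efficiency calls in liver and 1 to 4 lower by footprint in lung. Changes that turned with median-of-ratios scaling were Cpt1a by mRNA in heart (0.34), Hsd17b4 by mRNA in heart (0.62), Eci1 by mRNA in lung (0.18), Acads by footprint in heart (0.22) and Hsd17b10 by footprint in heart (0.00370) on the log2 scale.

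Depth cannot be read from TPM, so no count floor or interval could be given, and with 2 libraries in each group the spread was pooled over 12 groups of an assay; where 1 library was left out, the lone library was taken to vary like the others. No count of members was moved by the variance trend or by the replicate block, with the replicate number as a term, which left the 38 counts within 1.5 times and the calls of all 184 changes tested. The labels do not say that same-numbered libraries share an animal, and not every pair correlated above 0.1, so the numbers were not taken to pair the samples. Between groups of an assay, 12 of 66 pairs of deviations correlated above 0.1 in RNA-seq and in Ribo-seq alike, and same-numbered RNA-seq and Ribo-seq libraries correlated by -0.28 to 0.42 over 12 groups, above 0.1 in 6 of them. With median-of-ratios scaling 283 of 408 group levels moved by more than the replicate SD. With the block, 27 members were higher by mRNA in kidney.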

Other observations

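Of the 10 other transport and binding genes, 1 rose and 3 fell by mRNA among the 8 tested in brain (11.7% and 36.0% of all genes), and 2 rose and 3 fell among the 8 in retina (18.6% and 24.7%). Fabp7, the form of radial glia, had 64.6 and 47.4 TPM in P42 brains, against 1075 and 1009 TPM in E15.5 brains, a change of -4.21, and 3.21 and 2.51 TPM in P42 retinas, against 108 and 85.6 TPM in E15.5 retinas, a change of -4.66. Fabp5, an epidermal form also found in embryonic neurons, had 12.8 and 15.4 TPM in P42 retinas, against 180 and 158 TPM in E15.5 retinas, a change of -3.49. Phyh rose in both, with 147 and 172 TPM in P42 brains, against 59.7 and 58.1 TPM in E15.5 brains, a change of 1.42, and 135 and 158 TPM in P42 retinas, against 55.6 and 55.1 TPM in E15.5 retinas, a change of 1.39. In lung Fabp4, a form of endothelium and fat, had 35.4 and 19.2 TPM in P42 lungs, against 4.01 and 2.54 TPM in E15.5 lungs, a change of 2.69, and Lpl had 117 and 136 TPM in P42 lungs, against 13.9 and 11.5 TPM in E15.5 lungs, a change of 3.22, beside the adipocyte markers given above, whose part was not tested. Each of these changes was called in limma by both assays and under every scaling.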
